A study of Homo sapiens with 3 samples.

Results

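MYC regions that were 1 unbroken stretch in untreated P493 cells and 2 or more separate stretches in MST-312-treated cells numbered 961. They were selected on overlap: of the 31378 MYC regions listed in untreated cells, each shares at least 1 bp with 2 or more regions listed after MST-312. They made up 3.06% of the untreated list, or 5.72% of the 16803 untreated regions that met any MST-312 region. The members were thus chosen by the called borders in both libraries. All values from that comparison are descriptions, no test was run on them, and nothing is read from these shares. An MST-312 region that shares bases with a split untreated region is called a piece here, and the unlisted bases between neighbouring pieces are called a gap.

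The series profiled MYC binding in the human B cell line P493 by ChIP-seq, in which DNA crosslinked to a precipitated protein is sequenced, here as single reads. Its 3 samples are an untreated MYC library, a MYC library from cells given MST-312 and an input library of untreated cells without antibody. Both MYC libraries used the N262 antibody, and both were called against the same input. The labels give neither a dose nor a time for MST-312. P493 cells carry a repressible MYC transgene; the labels do not say whether it was on, and binding data cannot check the cell line against expressed markers. Each condition is 1 library, so no difference has a replicate check.

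MYC is a transcription factor that binds DNA as a dimer with MAX, most tightly at E-box sequences, and in proliferating B cells it occupies a large share of active promoters and enhancers. At high MYC levels its signal spreads over broad stretches of open chromatin around such sites. A peak caller lists each stretch of raised signal as 1 region with 1 summit, the position of the highest pileup. A broad region can therefore hold several local maxima of which only 1 is named. MST-312 is a small-molecule telomerase inhibitor, and the study asked how it affects MYC binding.

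Depth differed between the libraries. The untreated library kept 60805153 of 80489246 tags after duplicates were limited, and the MST-312 library kept 55400354 of 108838301, which is 8.89% fewer. Its redundant rate was 0.49, against 0.24 without treatment. These gaps in depth and duplication cannot be told apart from the treatment, because each condition is 1 library. Intervals below cover counting error over regions only: they are 95% exact Clopper-Pearson intervals for shares and binomial order-statistic intervals for medians.

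Before the list-wide values, the 6 split regions with the highest untreated pileup are described. Their weakest piece had 11.3 to 43.1% of the strongest piece's pileup, below the lower quartile of 47.5% over all 961. Their pieces were thus more unequal than those of most split regions. The highest untreated pileup, the number of fragments extended to 200 bp that cover the summit, was 675, on chromosome 17 at 38254126 to 38257671 (hg19, 3546 bp). The MST-312 library had a piece of 2533 bp with a pileup of 509 and its summit at the same base, 38255406. A second piece of 405 bp with a pileup of 83 lay 379 bp away on the side of lower coordinates. A main piece thus stayed on the untreated summit, and a weaker piece on a shoulder of the untreated region was listed apart from it.

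The next 5 regions by pileup had the same arrangement. On chromosome 17 at 79827760 to 79830421, the untreated pileup was 609, and the pieces had pileups of 82 and 403 with only 43 bp between them. On chromosome 20 at 17948246 to 17951068, the untreated pileup was 578 and the pieces had pileups of 391 and 44, 471 bp apart. On chromosome 17 at 61774678 to 61780454, a broad region of 5777 bp with a pileup of 575 met a piece of 3848 bp (pileup 413) and 1 of 617 bp (pileup 71). On chromosome 19 at 1861649 to 1865209, where the untreated pileup was 569, 3 pieces had pileups of 57, 61 and 281. On chromosome 8 at 101732738 to 101735265, an untreated pileup of 494 stood beside pieces of 134 and 311. In all 6 regions the untreated summit lay in the piece with the highest pileup, which was also the widest, and the summits of that piece and of the untreated region were at most 20 bp apart.

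**Figure D1:**
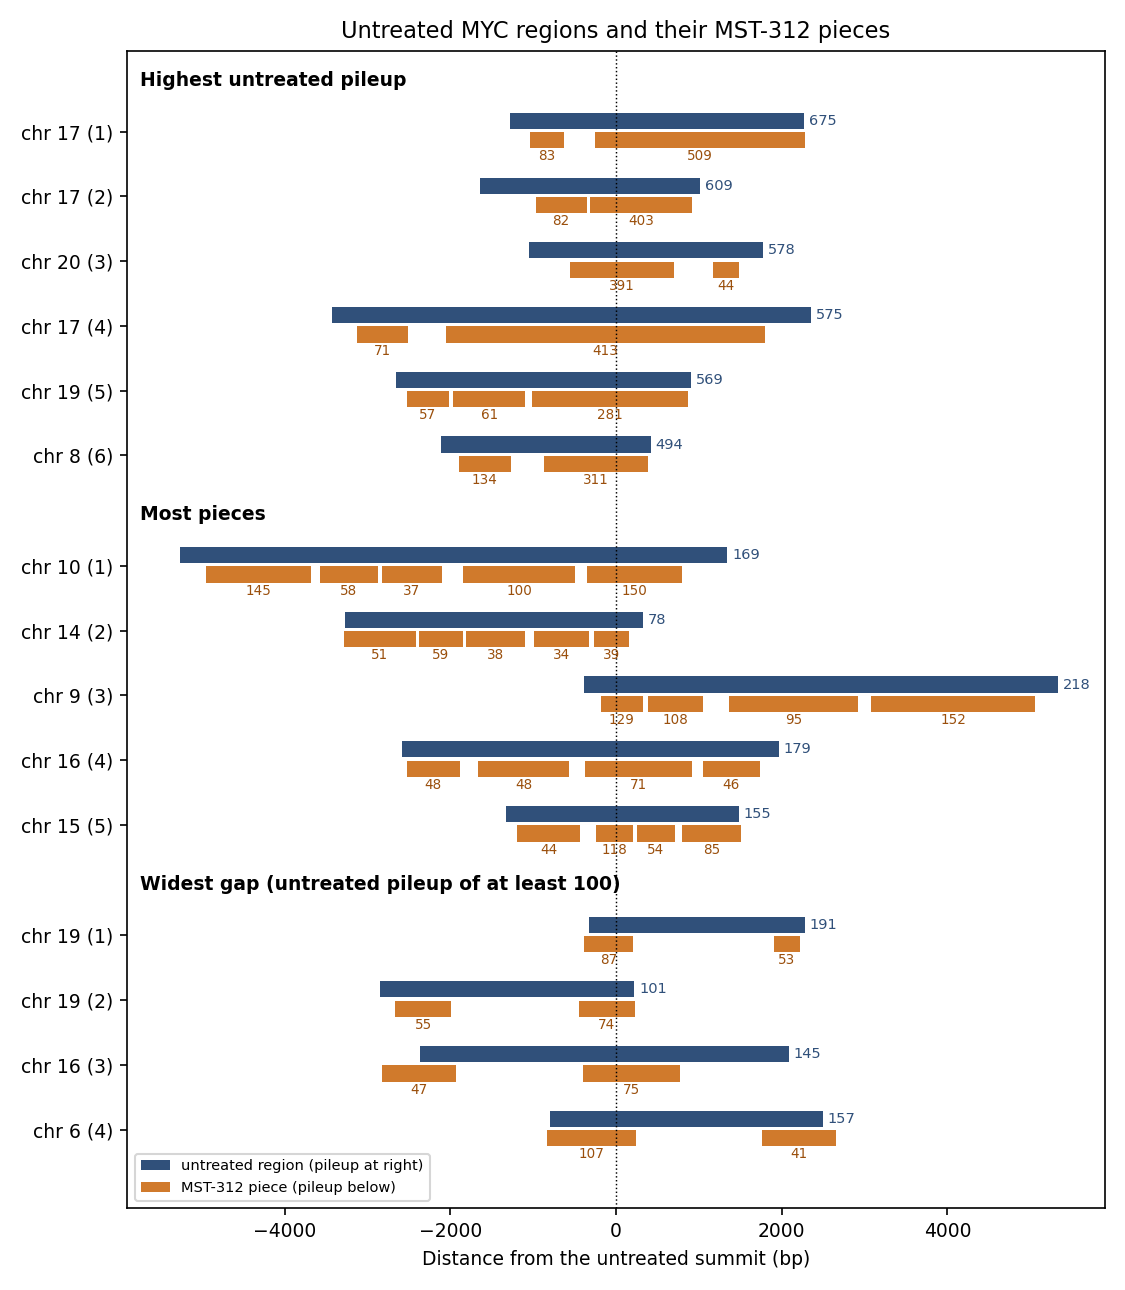
Untreated MYC regions (blue bars) and their MST-312 pieces (orange bars), plotted as distance in bp from the untreated summit (dotted line), with summit pileups in fragments printed beside the bars. The number in brackets is the place within the group; the top 6 regions each keep a main piece over the summit, with pileups from 281 to 509 against 494 to 675 untreated, and the regions with most pieces hold 4 or 5.

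Split regions were broad. Their untreated width had a median of 2019 bp (interval 1965 to 2092, quartiles 1504 and 2609 bp, range 360 to 7556 bp). Untreated regions with exactly 1 MST-312 region, 15842 in number and called one-partner regions here, had a median of 986.5 bp. Of the split regions, 491 (51.1%) were at least 2000 bp wide, against 1086 (6.86%) of the one-partner regions. A broad region offers more room for a break, so width is tied to the rule itself.

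The share of regions split went up with width. Among untreated regions with any MST-312 region, 49 of those under 1000 bp were split (0.605%, 0.448 to 0.799). The share was 3.98% at 1000 to 1500 bp, 9.65% at 1500 to 2000 bp and 26.3% at 2000 to 3000 bp, where each band includes its lower and excludes its upper bound. At 3000 bp or more, 142 regions were split and 109 were not, a share of 56.6% (50.2 to 62.8). Past this width, then, a MYC region with any MST-312 call was in pieces more often than in 1 stretch.

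Summit pileup followed the split share far less than width did. The share was 2.02% below a pileup of 75, 5.31% at 75 to 100 and 8.06% at 100 to 150, and it was 8.42% and 8.38% in the 2 highest bands. Among regions of 2000 bp or more it was 35.3% (30.8 to 40.0) at pileups of 100 to 150 and 26.4% (22.7 to 30.3) at 200 or more. At 1000 to 2000 bp the corresponding shares were 7.37% (6.31 to 8.56) and 3.79% (2.86 to 4.91). Among regions of 2000 bp or more it was 31.4% (26.7 to 36.3) at pileups of 150 to 200, between those values. Below 75 it was 28.3% (17.5 to 41.4). In both width bands the share was thus lower at pileups of 200 or more than at 100 to 150. Both bands are coarse, so widths can still differ within them, and the difference was not tested.

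**Figure D2:**
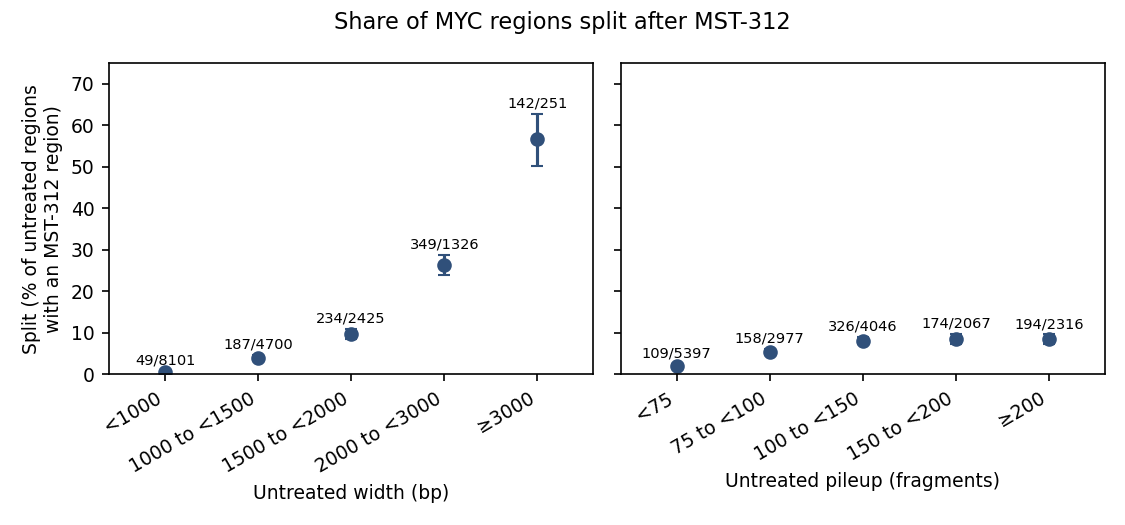
Percentage of untreated regions with any partner that were split, by untreated width in bp (left) and by untreated summit pileup in fragments (right). Points are shares with 95% exact intervals and carry split over total regions; the share runs from 0.605% to 56.6% over width and stays at or under 8.42% over pileup.

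Most split regions broke once. Exactly 2 pieces were found in 902 regions (93.9%), 3 in 53, 4 in 4 and 5 in 2. The 961 regions held 1981 different pieces, of which 88 also met another untreated region. These pieces were 7.17% of the MST-312 list. Their median width was 736 bp (quartiles 509 and 1083 bp) and their median pileup was 63 fragments (quartiles 48 and 90), against 566 bp and 50 fragments over the whole MST-312 list. The deposited −log10 q of the pieces had a median of 30.3 and a lowest value of 13.1, close to the lowest value in the MST-312 list, 13.0. A weak part of a region below that listing level is not seen as a piece, so regions counted as one-partner may hold further MST-312 signal.

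The 5 named regions with the most pieces were all wider than 2609 bp, the upper quartile of split regions. Their untreated pileups ran from 78 to 218. The longest of these, on chromosome 10 at 7449291 to 7455902, was 6612 bp wide with an untreated pileup of 169. Its 5 pieces had pileups of 145, 58, 37, 100 and 150 in coordinate order, with gaps of 105, 42, 257 and 136 bp. The untreated summit lay in the last of these pieces, 7 bp from that piece's summit, while a first piece of nearly equal pileup had its own summit 4018 bp away. The other region of 5 pieces, on chromosome 14 at 24834845 to 24838444, had an untreated pileup of only 78 and pieces between 34 and 59. Its untreated summit was in the last piece, which ranked 3rd by pileup and was the narrowest.

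The naming rule also selected 3 of the 4 regions with 4 pieces, those with the highest untreated pileups. The chromosome 9 region at 134148296 to 134154018 had an untreated pileup of 218 and pieces of 129, 108, 95 and 152. Here the highest MST-312 piece was the last, 3283 bp from the untreated summit, and the first piece kept that summit. On chromosome 16 at 85644039 to 85648590 the untreated pileup of 179 stood beside pieces of 48, 48, 71 and 46. On chromosome 15 at 74694161 to 74696973 it was 155 beside 44, 118, 54 and 85. The chromosome 15 summit lay in the piece of 118, which was the narrowest of the 4 at 444 bp.

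Gaps between pieces were short. Over 1028 gaps the median was 123.5 bp (interval 116 to 131, quartiles 65 and 234 bp), and 711 gaps (69.2%, 66.2 to 72.0) were under 200 bp, the length to which each tag was extended. In 650 of the 961 regions no gap reached 200 bp. No gap can be under 36 bp: that was the smallest distance between rows in both lists, 1 bp more than the tag size of 35 bp, and 14 gaps had exactly this length. Joining MST-312 rows less than 200 bp apart left 311 split regions, and joining those less than 1000 bp apart left 17. The number of split regions thus rests mainly on breaks shorter than 1 sequenced fragment.

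The call numbers in both lists increase along each chromosome and skip values. On the assumption that calls were numbered in genome order before the list was thinned, which neither header states, a skipped number between neighbouring pieces marks a weaker, unlisted call. The numbers were consecutive at 950 of the 1028 gaps (92.4%). In the other 78 gaps, 86 numbers were skipped between the pieces, and these gaps were long, with a median of 654 bp against 112.5 bp where the numbers were consecutive. The shortest listed MST-312 region was 201 bp, and rows lay at least 36 bp apart, so a short gap has no room for a further call. The contrast in length and the high share of consecutive numbers are thus partly set in advance. All 17 gaps of 1000 bp or more had a skipped number. Under that assumption, those 17 gaps each held at least 1 unlisted call at the caller's p-value threshold of 0.05. Such calls were many: numbers in the MST-312 list ran up to 777551 for 27614 listed regions. A skipped number in a long gap is therefore not read as MYC signal that was kept.

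Spacing of the pieces' summits was larger than the gaps themselves. Neighbouring summits lay a median of 936.5 bp apart (quartiles 655 and 1287 bp), with the closest pair 353 bp apart. Gaps tended to lie centrally: 845 of 1028 (82.2%) had their midpoint in the central 50% of the region, between 25 and 75% of its length. A gap cannot lie at an edge of a region, since a piece must lie on each side of it, so a central position is partly set by the rule. The untreated summit was a median of 383 bp from the nearer edge of a gap.

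**Figure D3:**
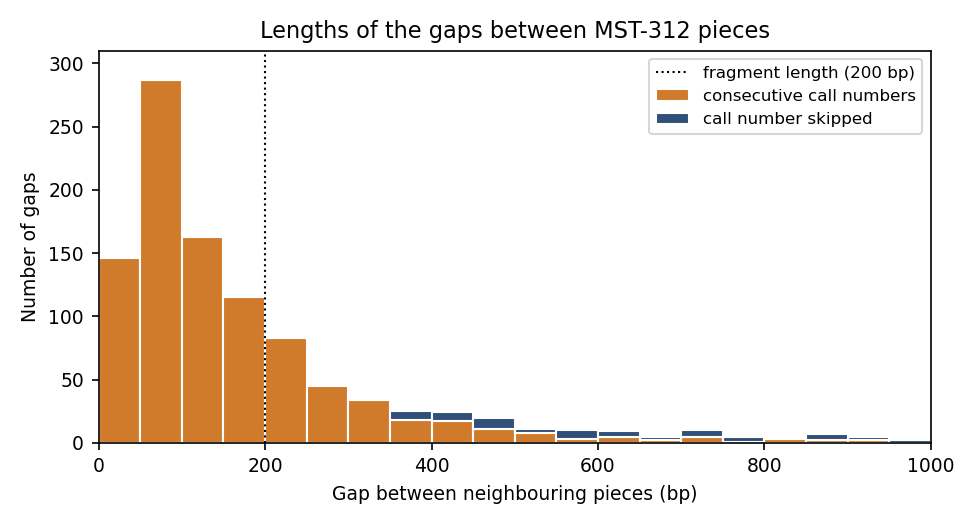
Number of gaps between neighbouring MST-312 pieces by gap length in bp, in bins of 50 bp up to 1000 bp (17 longer gaps are not drawn). Orange marks gaps between consecutively numbered pieces and blue those with at least 1 skipped call number, taken as an unlisted call; the tallest bin, 50 to under 100 bp, holds 287 gaps, and most gaps lie left of the 200 bp fragment length (dotted line).

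Widest gaps were examined in regions with an untreated pileup of at least 100. The widest, 1701 bp, lay in the chromosome 19 region at 18313670 to 18316276. Its untreated pileup was 191, and its pieces had pileups of 87 and 53, so that 32.3% of its bases were kept, the lowest share among split regions of that pileup. Another chromosome 19 region, at 16435007 to 16438076, had an untreated pileup of 101, pieces of 55 and 74 and a gap of 1538 bp. The chromosome 16 region at 89988702 to 89993161 had an untreated pileup of 145, pieces of 47 and 75 and a gap of 1528 bp. On chromosome 6, the region at 157097865 to 157101163 had an untreated pileup of 157, pieces of 107 and 41 and a gap of 1517 bp. The higher piece held the untreated summit in all 4, and 1 or 2 call numbers were skipped at each gap.

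Split regions kept most of their bases. A median of 78.0% (interval 77.0 to 79.0, quartiles 65.8 and 87.0%) of a region's bases lay inside an MST-312 piece. Pooled over all 961, 75.6% of bases were kept, 10.1% lay in gaps and 14.3% at the outer edges. More of the lost bases thus came from trimmed outer edges (58.5%) than from the breaks (41.5%). Per region, the gaps took a median of 129 bp and the edges 217 bp. In 56 regions (5.83%) less than 50% of bases were kept, against 1828 (11.5%) of the one-partner regions. At least 90% were kept in 170 (17.7%), against 4804 (30.3%) of the one-partner regions. These shares are without regard to width, and a split region always loses the bases of its gap.

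At like width from 1000 bp up, the median share kept was no lower in split than in one-partner regions. Without regard to width, the median share kept was 78.0% in split and 79.6% in one-partner regions. Under 1000 bp it was 81.9% and 83.5%. At 1000 to 1500 bp it was 77.8% (74.8 to 79.7) in split and 74.9% (74.2 to 75.8) in one-partner regions. At 2000 to 3000 bp it was 77.1% (75.1 to 78.9) and 74.8% (73.1 to 77.8), and at 3000 bp or more 79.2% and 78.8%. Averaged over 5 width bands by the number of split regions, the difference was 1.91 percentage points in favour of split regions, against -1.58 points without bands. What differed was where bases were lost: at 2000 to 3000 bp the outer edges took a median of 11.2% of a split region and 25.2% of a one-partner region. A region of 2 pieces needs a listed piece toward each end, so the smaller edge loss also follows from the rule.

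**Figure D4:**
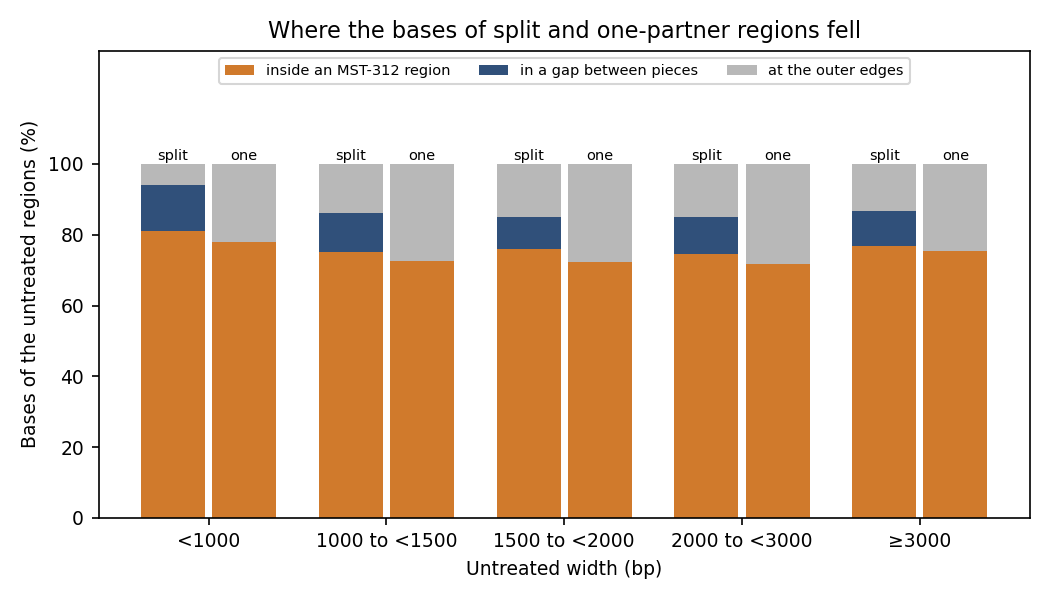
Pooled percentage of untreated bases that lay inside an MST-312 region (orange), in a gap between pieces (blue) or at the outer edges (grey), for split and one-partner regions in 5 bands of untreated width in bp. At 2000 to 3000 bp split regions kept 74.7% with 10.3% in gaps and 15.1% at the edges, and one-partner regions kept 71.7% with 28.3% at the edges.

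Few split regions kept little, in share fewer than of the one-partner regions. Besides the 2 already named on chromosomes 19 and 16, the latter with 36.1% kept and 1320 bp lost at its edges, the chromosome 20 region at 47338338 to 47339837 kept 35.5%. Its untreated pileup was 138 and its pieces had pileups of 43 and 49, 168 bp apart. The first of these pieces began outside the untreated region. In 530 of the 961 regions (55.2%) a piece reached beyond the untreated border, by a median of 17 bp in total over all 961.

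The untreated summit lay inside a piece in 948 of the 961 split regions (98.6%, 97.7 to 99.3), in a gap in 7 and outside the outermost pieces in 6. In one-partner regions it lay inside the partner in 97.6% (97.3 to 97.8), and over all untreated regions with a partner in 97.6%, so the split regions stood near this background.

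Of the 948 kept summits, 746 (78.7%, 75.9 to 81.3) lay in the piece with the highest pileup and 610 (64.3%, 61.2 to 67.4) in the widest piece. In 526 the same piece was both. Among regions of 2 pieces the summit was in the piece at the lower coordinate in 465 of 889 (52.3%, 49.0 to 55.6). The piece with the summit was thus mostly the strongest one, and it lay on either side about equally often.

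In 202 regions (21.3%) the untreated summit lay in a piece that was not the strongest in the MST-312 library. These regions had lower untreated pileups, with a median of 102 (interval 96 to 106), than the 746 in which the summit stayed in the strongest piece (144, 137 to 147). Their summit piece had a median pileup of 54.5 and their strongest piece of 68, and the 2 were often close: the former was at 90% or more of the latter in 59 regions and under 80% in 89. The strongest piece's summit lay a median of 909.5 bp from the untreated summit in these regions, against 42 bp in the others. The strongest piece of these regions was thus not the one on the untreated summit, with small margins in many. A piece's pileup is that of its whole MST-312 region, whose summit can lie beyond the untreated border. Without regions that share a piece with another untreated region, 79.9% of 857 kept summits lay in the strongest piece.

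The 7 summits in a gap belonged to regions with untreated pileups below 96, the lower quartile of the 961 split regions. The median over the whole untreated list was 62, so they were low only against other split regions. The highest untreated pileup among them was 95, in the chromosome 17 region at 29818382 to 29820688, whose pieces of 47 and 42 lay 1524 bp apart with 1 call number skipped between them. The untreated summit was there 24 bp past the end of the first piece. On chromosome 22 at 50623255 to 50625404 the untreated pileup was 84, the pieces had 38 and 42, and 18.7% of bases were kept, the lowest share of all 961. Chromosome 1 at 201708119 to 201710208 had 80 untreated and pieces of 48 and 37. On chromosome 2 at 211034805 to 211036648 an untreated pileup of 67 met pieces of 69 and 41.

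Untreated summits of split regions lay nearer to a border than those of one-partner regions. The distance from the summit to the nearer border was a median of 28.4% (27.3 to 29.5) of the region's width, with the centre at 50%. It was 37.5% (37.2 to 37.7) in one-partner regions. At 2000 to 3000 bp the values were 27.6% (25.9 to 29.7) and 33.2% (32.0 to 34.6), and at 1500 to 2000 bp 27.9% (25.8 to 30.1) and 34.9% (34.3 to 35.6). This value comes from the untreated list alone, yet the split regions were chosen with both lists. Gaps lay centrally and 98.6% of untreated summits lay in a piece, so the rule itself favours summits away from the centre. At 3000 bp or more the intervals overlapped, with 27.5% (25.4 to 30.3) and 32.5% (28.6 to 36.7).

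Pileup was lower in the pieces than in the untreated regions. Split regions had a median untreated pileup of 130 (interval 126 to 136, quartiles 96 and 182, range 32 to 675). Their strongest piece had a median of 85 (81 to 88) and their weakest of 51 (50 to 52). The strongest piece was below the untreated pileup in 876 of 961 regions (91.2%), against 85.0% of all untreated regions with a partner. Per kept tag it was below in 824 (85.7%). The 85.0% is from unscaled pileups, and its counterpart per kept tag was not computed. The 85.7% therefore has no background share beside it. Pileups are unscaled and no spike-in is named in the labels, so these are values of both libraries side by side.

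The strongest piece stood at a median of 65.4% (63.5 to 66.8) of the untreated pileup, and the partner of a one-partner region at 69.6% (69.1 to 70.0). Per kept tag these medians were 71.8% and 76.4%. At like width the order was the other way in each of the 4 bands from 1000 bp up, with 63.2% and 62.2% at 2000 to 3000 bp, and 67.2% and 63.0% at 1500 to 2000 bp; under 1000 bp they were 75.7% and 77.6%. From 1000 bp up, then, the strongest piece stood no lower against the untreated pileup than an unbroken partner did. The split value is the highest of 2 or more pieces, which raises it by construction. At like pileup the medians were 91.0% and 91.1% below 75, and 59.7% and 57.4% at 200 or more. In the bands between, the split median was also the higher. Untreated pileups at 2000 to 3000 bp were lower in split regions, with a median of 148 (142 to 156), than in one-partner regions (165, 160 to 171).

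Pieces of 1 region were often unequal. The weakest piece had a median of 65.4% of the strongest piece's pileup (quartiles 47.5 and 82.4%). The strongest was at least 2 times the weakest in 282 regions (29.3%), and the weakest reached 80% or more of the strongest in 275 (28.6%). Their spread therefore ran from a main peak with a minor shoulder to near-equal neighbours. The strongest piece had a median width of 880 bp and the weakest of 616 bp. At the pieces' median local background of 7.91 fragments, a Poisson p of 0.05, the caller's threshold, is passed at a pileup of 13. The lists were thinned to stronger calls: the lowest pileup in the MST-312 list was 28. The weakest pieces began at that value, with quartiles of 42 and 63 and a median of 51, so some lay near the listing level.

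**Figure D5:**
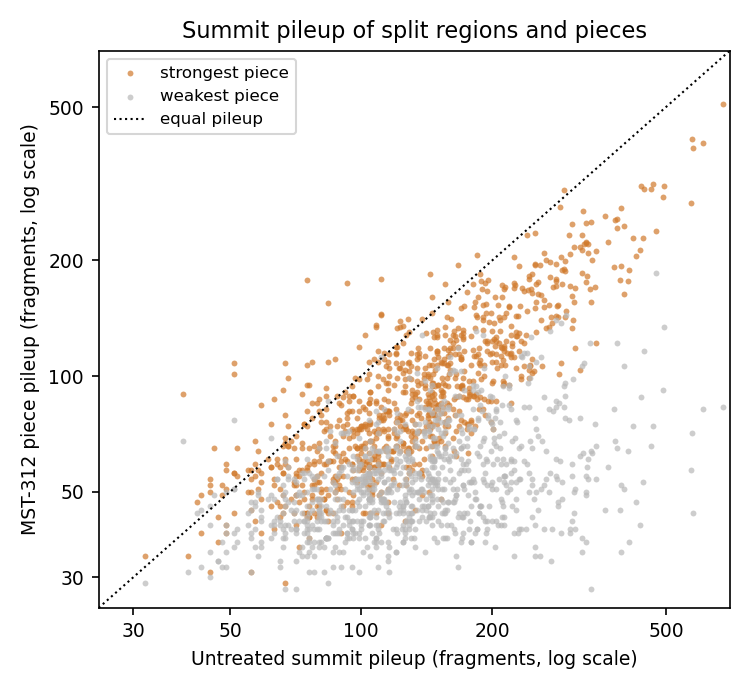
Summit pileup of each split region in the untreated library (x axis) against that of its strongest (orange) and weakest (grey) MST-312 piece (y axis), in fragments on log scales, with equality as a dotted line. Orange points lie below the line in 876 of 961 regions, and grey points gather around a median of 51 over most of the untreated range.

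Gap width did not order the regions by strength. Regions whose widest gap was under 100 bp (388) had a median untreated pileup of 131 and kept a median of 82.6% of bases. Those with a gap of 500 bp or more (85) had a median pileup of 136 and kept 58.3%. The untreated summit lay in a piece in 98.7% (97.0 to 99.6) of the former and 95.3% (88.4 to 98.7) of the latter. Median untreated width was 1863 bp in the former and 2644 bp in the latter.

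Split regions lay on all chromosomes but Y. Among untreated regions with any partner they were most frequent on chromosome 11, with 70 of 820 (8.54%, 6.71 to 10.7), and chromosome 19, with 90 of 1104 (8.15%, 6.61 to 9.93). Chromosome 2 was lowest among 1 to 22 and X, with 46 of 1212 (3.80%, 2.79 to 5.03). Among regions of 1500 bp or more, the shares on these 3 chromosomes were 23.4%, 27.1% and 13.1%. Chromosome 2 thus stayed below chromosomes 11 and 19 among broad regions, but it was not the lowest. Chromosomes 4 (11.9%) and 8 (13.0%) lay below it there. Another untreated region lay within 1000 bp of 28.0% (25.2 to 30.9) of split and 20.4% (19.8 to 21.1) of one-partner regions. Of the split regions, 94 shared a piece with another untreated region, at most 887 bp away. The rule thus itself favours close neighbours, and nothing is read from this difference. The local background at the untreated summit had medians of 9.45 and 8.68 fragments.

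The mirror arrangement, in which 1 MST-312 region spanned 2 or more untreated regions, occurred 335 times, or in 1.21% of the 27614 MST-312 regions. Its gaps, here between untreated regions, had a median of 81 bp (75 to 90) and the spanning MST-312 regions a median width of 1305 bp. Breaks in this direction were fewer and shorter than those of the split regions, whose gaps had a median of 123.5 bp. The MST-312 list also held fewer and narrower regions, and the part of this in the difference was not tested. Of the 961 split regions, 94 shared a piece with another untreated region, so both lists broke the same stretch at different places.

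At the edge of the rule, 36 split regions had a piece that shared under 50 bp with them. These 36 had a median width of 1300.5 bp, a median pileup of 100 and 74.7% of bases kept. Just outside the rule, 51 one-partner regions had a further MST-312 region less than 50 bp beyond their border. Their medians were 1009 bp, a pileup of 97 and 77.5% of bases kept, so the regions on both sides of the rule were alike in pileup and in bases kept.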

How the data were processed

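Peak lists of the untreated and the MST-312 MYC library were used. The submitters' processing notes name CASAVA 1.8, Bowtie2 2.2.3 and hg19. Per the file headers, the authors ran MACS 2.0.10.20131216 on each library separately against 1 shared input, with fragments of 200 bp, a p-value threshold of 0.05 and at most 3 duplicate tags per position. The deposited pileup is a signal value at the summit, in fragments, unscaled in both MYC libraries because the input is larger. Fold enrichment as deposited is a ratio to local background, which was computed here as (pileup + 1) / fold − 1. The deposited −log10 p and q values are the caller's. Neither header states how the lists were thinned to strong calls.

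Overlaps were computed in Python 3.11.15 with numpy 2.4.6, pandas 2.3.3 and scipy 1.17.1; bedtools 2.31.1 gave the same 961 split regions. In lists simulated from the untreated regions all 800 broken regions were recovered. Figures were drawn with matplotlib 3.10.9. Coordinates are 1-based hg19 positions as listed.

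The members, lists and rules were chosen with earlier results of these data known. Named regions are the 6 with the highest pileup, the 5 with most pieces, the 4 with the widest gap and the 3 with the lowest share kept (both at a pileup of at least 100), and the 4 strongest with the summit in a gap. Gene names, gene groups and sequences were not used here, because the reference tables are on another build. Alternatives covered the overlap rule, a −log10 q of at least 20, joined rows, chromosomes, shared pieces and bands of width and pileup.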

Additional observations from a re-analysis of the deposited data

How the results depend on the processing

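With 1 library per condition no replicate could be left out. No paired analysis was possible because no result comes from a test and each group holds 1 sample. Gene and promoter alternatives were not run. Of 59 alternative values, 32 were inside the reported interval or within 1.5 times the reported count, 26 moved and 1 reversed: the median share kept in split minus one-partner regions, -1.58 percentage points, was 1.91 within bands of width. The mirror alternatives, pileups per kept tag, the strongest-piece share under other settings and the bands for summit position were chosen after seeing the data.

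Joining MST-312 rows under 200 bp or under 1000 bp apart left 311 and 17 split regions, of which 1.93% and 0% had 3 or more pieces (6.14% as reported). The median share kept was then 69.9% and 47.1%, the median width 2312 and 2858 bp and the median gap 340 and 1408 bp. The summit lay in the strongest piece in 74.1% and 71.4%, and with the 1000 bp rule it lay in a piece in 82.4%. Joining removes the shorter gaps by its construction. With −log10 q of at least 20 there were 532 split regions, 3.95% with 3 or more pieces, a median width of 2247.5 bp, a median pileup of 149 and 99.4% of summits in a piece. Pieces lying at least 50% inside gave a median width of 2098.5 bp. Summits in or within 100 bp of a piece came to 99.4%. The summit's distance to the nearer border, as a percentage of width, differed by -5.82 points within bands of width, against -9.17. The strongest piece was below the untreated pileup in 85.7% per kept tag. The mirror count of 335 was 173 with the 50% rule, 188 with −log10 q of at least 20, and 34 and 0 with untreated rows joined under 200 and 1000 bp. Apart from the joining, the cause was not tested.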
